A study of Mus musculus with 8 samples.

Results

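Neat1 and Malat1 are long noncoding RNAs of the cell nucleus. Both were named by symbol, with no threshold, and were selected on earlier results of the same data. They are 2 of the 17580 genes counted in 8 single-cell libraries from mouse tumours. The fold changes and adjusted p-values below come from fits across all tested genes; since the genes were chosen with results known, these values describe the data and are no independent support. Counts are unique molecules (UMIs), and a level is the gene's UMIs per 10000 UMIs of the same set of barcodes.

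Neat1 is the scaffold of paraspeckles, nuclear bodies that hold RNA-binding proteins and edited or retained transcripts. A short polyadenylated form and a long form share their 5′ end, and only the long form builds the body; Neat1 transcripts turn over quickly. Malat1 gathers in nuclear speckles beside splicing factors, is stable and abundant in most mammalian cells, and has a 3′ end made by RNase P cleavage in place of a poly(A) tail. Because both stay in the nucleus, their share of all RNA differs between nuclear and cytoplasmic material.

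All groups were 4T1 mammary carcinoma tumours, grown under the skin of BALB/c mice for 10 days and digested for 1 h with a protease of Bacillus licheniformis. The 4 groups were 37C with inhibitor, 37C without inhibitor, 4C with inhibitor and 4C without inhibitor. The inhibitor was actinomycin D, an inhibitor of transcription, at 2 nM. How far transcription was blocked at this dose was not tested. The 37C digests ran on a heated instrument and the 4C digests on an unheated one, so temperature and instrument cannot be told apart. Each group was 1 suspension, pooled from 6 tumour pieces of different mice and then split in aliquots, called A and B. The p-values between groups, where fitted to single aliquots, therefore measure the spread between aliquots, not between mice or digests. Those between sets of barcodes measure how the difference between sets varied over the 8 libraries. These are 2 aliquots of each of 4 suspensions, not 8 independent samples.

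The authors' cell type table named 654 of 23980 barcodes: 325 tumour cells, 154 T cells, 109 macrophages and 66 NK cells. Barcodes absent from it are called unannotated and were divided by size into 22525 under 200 UMIs, 696 from 200 to 5000 and 105 over 5000, of which 104 came from 37C. In total the 37C libraries held 433245 to 801510 UMIs each, against 55698 to 186002 in the 4C libraries. The annotated cells of a library held 158314 to 199929 UMIs in the 37C libraries, against 23212 to 65149 in those of 4C, so the 4C levels carry the wider counting error. Each type was led by its own markers, with 18.3 (tumour), 100.1 (T), 278.7 (macrophage) and 136.6 (NK) marker UMIs per 10000; Epcam and Krt14 were at 0 in the tumour cells, while the other 6 of their 8 markers were detected. Across libraries, 318 of 23660 barcode sequences recurred, and 1 of 653 among annotated cells.

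In the build GRCm38, both genes are lincRNAs on the minus strand of chromosome 19. Malat1 spans 5795690 to 5802672 (6983 bases) and Neat1 spans 5824708 to 5845478 (20771 bases). The libraries were made with a 3′ kit, which primes on A-rich sequence, so the ends of the transcripts are shown, each as 100 bases from the GENCODE M21 transcripts. In the first pair the capitals mark AATAAA, the usual signal for polyadenylation. The first is the annotated end of Malat1-201, at chr19:5795690-5795789, and the other is the end of the short Neat1-202 (3004 bases, 2 exons), at chr19:5842307-5842406.

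Malat1-201 end: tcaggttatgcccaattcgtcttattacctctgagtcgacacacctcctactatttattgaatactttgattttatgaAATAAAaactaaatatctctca

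Neat1-202 end: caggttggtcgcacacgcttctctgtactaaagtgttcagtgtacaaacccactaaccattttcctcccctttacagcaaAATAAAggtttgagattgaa

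AATAAA lay in the last 100 bases of 28.9% of 139316 transcripts of that length or longer. It was absent from the last 100 bases of Neat1-201, the long form, at chr19:5824708-5824807. In the next pair the capitals mark stretches of 10 or more bases that this end shares with a window inside Malat1-201, at chr19:5795944-5796043. They were 16 and 11 bases long. In Malat1 the window lies 354 to 255 bases before the annotated end and holds its longest run of A, 12 bases at 5795988 to 5795999. An A run of that length lay in 4.14% of the transcripts. The longest run was 7 bases in Neat1-201 and 5 in Neat1-202.

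Neat1-201 end: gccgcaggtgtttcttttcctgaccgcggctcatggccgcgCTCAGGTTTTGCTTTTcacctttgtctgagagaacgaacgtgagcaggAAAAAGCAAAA

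Malat1-201 window: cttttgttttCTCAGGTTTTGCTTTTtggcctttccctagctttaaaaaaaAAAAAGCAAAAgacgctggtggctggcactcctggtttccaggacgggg

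The T-rich and A-rich stretches are known from both RNAs as the parts that fold into a triple helix and protect an end with no poly(A) tail. The deposited counts are per gene, so the forms of Neat1 and the position of the reads cannot be separated. The promoter table from RefSeq (GRCm38.p6, 250 bases before to 50 after the start) held Malat1. Motifs were sought on both strands: the TATA box as TATAAA, the GC box as GGGCGG, the AP-1 site as TGANTCA, the cAMP response element as TGACGTCA, the E-box as CACGTG, the hypoxia element as ACGTG, the heat shock element as GAANNTTC and the CCAAT box by its name. That window held 1 match, to ACGTG, and 19.6% of 32851 promoters held one. ACGTG lies within the E-box sequence CACGTG, which this window lacked.

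Most UMIs of both RNAs lay outside the annotated cells. Of 1717 Neat1 UMIs, 77.1% were in unannotated barcodes under 200 UMIs and 12.99% in annotated cells. Of 862 Malat1 UMIs the shares were 60.1% and 25.8%. Those small barcodes held only 24.5% of all UMIs, and annotated cells 32.0%.

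Neat1 in unannotated barcodes under 200 UMIs reached 13.5 and 9.24 per 10000 (37C with inhibitor, A and B), 21.1 and 15.8 (37C without), 26.9 and 20.8 (4C with) and 37.0 and 27.3 (4C without). In annotated cells the same libraries gave 2.15 and 2.20, 1.77 and 1.94, 5.60 and 3.38, and 4.17 and 4.14. The small barcodes were higher in 8 of 8 libraries, 4.21 to 11.9 times, and the sets did not overlap. With the library as a block, the log2 fold change was 2.89 ± 0.19 (SE; edgeR adjusted p = 7.5e-19), rank 15 of 2958 genes. In this comparison 19.4% of the genes tested were called higher (adjusted p under 0.05).

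Malat1 in the same small barcodes reached 7.82 and 2.68 per 10000 (37C with inhibitor, A and B), 11.3 and 7.25 (37C without), 7.16 and 5.64 (4C with) and 12.3 and 6.33 (4C without). Annotated cells gave 4.25 and 0.818, 2.72 and 2.19, 1.29 and 1.13, and 3.79 and 2.15. Each library was again higher outside the annotation, 1.84 to 5.54 times, although the ranges of the sets overlapped. The log2 fold change was 1.75 ± 0.21 (SE; edgeR adjusted p = 7.8e-10), rank 102 of 2958.

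Unannotated barcodes of 200 to 5000 UMIs did not stand apart from annotated cells. Their pooled levels were 2.22 per 10000 (Neat1) and 1.70 (Malat1), against 2.47 and 2.46 in annotated cells. By library, Neat1 was above the annotated cells in 3 of 8 (0.391 to 2.14 times, median 0.903), and Malat1, against its pooled order, in 6 of 8 (0.0988 to 1.88 times, median 1.28). Fitted log2 fold changes were 0.01 ± 0.26 for Neat1 (edgeR adjusted p = 0.99) and -0.15 ± 0.28 for Malat1 (0.834), while 1.49% of genes were called. The barcodes over 5000 UMIs were lower, at 1.02 per 10000 for Neat1 and 0.674 for Malat1. In the 5 library sums that hold such barcodes, each was below the annotated cells of its library. The only sum from 4C, without inhibitor, aliquot A, was 1 barcode of 5049 UMIs with 0 UMIs of both RNAs. Its upper bound of 7.30 per 10000 lay above the annotated cells of that library (4.17 for Neat1, 3.79 for Malat1), so it cannot show a lower level. The log2 fold changes were -1.21 ± 0.27 for Neat1 (edgeR adjusted p = 0.000384) and -1.90 ± 0.30 for Malat1 (7.7e-07), and 15.4% of genes were called lower.

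**Figure D1:**
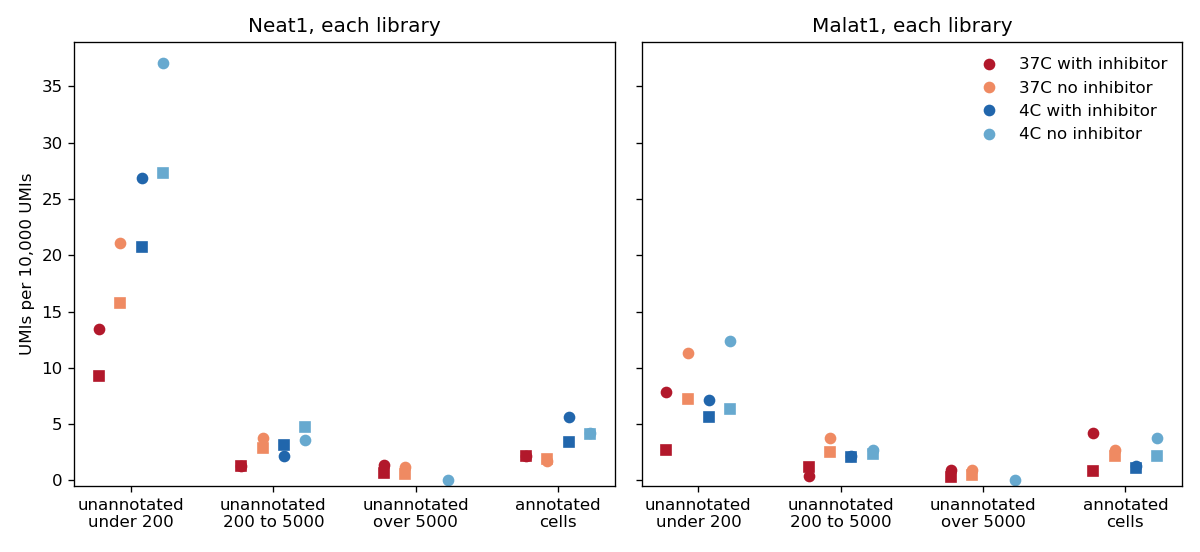
Level of Neat1 (left) and Malat1 (right), in UMIs per 10000 UMIs, in each library (circles aliquot A, squares aliquot B), for the 3 unannotated size sets and the annotated cells. Barcodes under 200 UMIs lie highest, from 9.24 to 37.0 for Neat1.

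The mRNAs for lists of proteins that act with these RNAs were read in the same comparison of small unannotated barcodes with annotated cells. No protein was measured, and the protein names here and below stand for the mRNAs. Of 22 mRNAs for proteins of nuclear speckles and splicing, 19 were tested, and 15 were called higher and 0 lower. Over all genes tested, 19.4% were called higher and 14.8% lower. The median log2 fold change of the list was 1.33, against 0.01 over all genes. Ddx5, an RNA helicase, had 1.80 ± 0.15 (edgeR adjusted p = 1.7e-14). Srsf2 and Srsf5, splicing factors of the SR family, had 1.64 ± 0.17 and 1.91 ± 0.17, and Son, a scaffold of the speckle core, had 0.70 ± 0.19.

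Of 20 paraspeckle proteins 13 were tested, and 4 were called higher and 1 lower, with a median of 0.42, where 19.4% of all genes were called higher and 14.8% lower. Smarca4, a chromatin remodelling ATPase, had -0.95 ± 0.23 (edgeR adjusted p = 0.00102). Of 30 other long noncoding RNAs 9 were tested, and 5 were called higher and 0 lower, with a median of 0.80. These were Gas5, Snhg1, Snhg3 and Snhg5, which host small nucleolar RNAs, and Mir142hg, which hosts a microRNA. Snhg3, Snhg5 and Mir142hg did not pass the filter on low counts in the fit over annotated cells alone. They may have entered this comparison only through the small barcodes, so their calls are no support. The same holds for Cpsf7 (1.85 ± 0.32), 1 of the 4 paraspeckle calls. Firre, a noncoding RNA that stays in the nucleus, was picked after its value was seen and had 2.77 ± 0.37. Xist, a tested member of the list, had 0.13 ± 0.27 (edgeR adjusted p = 0.743) and was not called.

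Markers of other cells also differed between these sets. Neutrophil markers (5 of 5 detected in both) summed to 3.79 to 10.9 per 10000 in small barcodes and 0 to 13.2 in annotated cells, pooled 6.59 and 1.25. Fibroblast markers (4 of 4, and 3 of 4 with Col3a1 at 0) pooled to 2.75 and 0.188. Macrophage markers (10 of 10 in both) pooled to 77.9 and 47.7, T cell markers (10 of 10) to 22.7 and 16.1, NK markers to 21.4 and 10.0, and tumour markers to 5.36 and 12.1. Mitochondrially encoded genes (9 of 9, and 8 of 9) stood at 24.1 and 9.79. Erythroid markers were at 0 in both. The part of these differences in the levels of Neat1 and Malat1 was not tested.

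Levels of Neat1 pooled over the 4 groups differed by barcode size. Among unannotated barcodes Neat1 stood at 29.0 per 10000 in those of 1 to 9 UMIs, 31.7 at 10 to 19, 20.4 at 20 to 49 and 15.5 at 50 to 99. It then stood at 6.77 from 100 to under 200, 3.59 at 200 to 499 and 1.51 at 500 to 999. The 95% exact binomial intervals of the first 2 classes overlap (22.6 to 36.6, and 27.6 to 36.3). From 20 to 49 UMIs up to 500 to 999, each class lay below the interval of the one before it. These intervals cover counting error only, and the groups fill the classes unequally: 3519 of the 3975 barcodes of 1 to 9 UMIs came from 4C with inhibitor. Within groups the fall from 10 to 99 UMIs was not general. At 10 to 19, 20 to 49 and 50 to 99 UMIs, Neat1 stood at 13.7, 11.3 and 12.997 at 37C with inhibitor, and at 14.6, 18.7 and 20.8 at 37C without. At 4C it stood at 32.9, 12.98 and 10.2 with inhibitor, the last from 5 UMIs, and at 38.1, 33.7 and 26.9 without. From 100 to under 200 UMIs all 4 groups were lower than in the class before, at 5.12, 8.41, 3.95 and 9.02 in the same order of groups.

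Malat1 was flatter over the small sizes. Its levels were 5.80, 9.002, 7.62, 7.28 and 6.30 per 10000 in the 5 classes under 200 UMIs, with overlapping intervals, then 2.66 at 200 to 499 and 1.59 at 500 to 999. Neat1 outnumbered Malat1 2.55 to 1 in all barcodes under 200 UMIs, and 1.00 to 1 in annotated cells. In annotated cells of 200 to 499, 500 to 999, 1000 to 1999 and 2000 to 5000 UMIs, Neat1 had 7.27, 3.08, 2.20 and 1.95 per 10000, and Malat1 8.59, 2.74, 1.71 and 2.16. Cell types fill these classes unequally. Of the 39 Malat1 UMIs in the smallest class 25 came from 28 macrophages, and 10 of these UMIs lay in 1 cell. Malat1 in tumour cells had 0 (from 8 cells, upper bound 11.3), 1.46, 0.669 and 1.47.

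**Figure D2:**
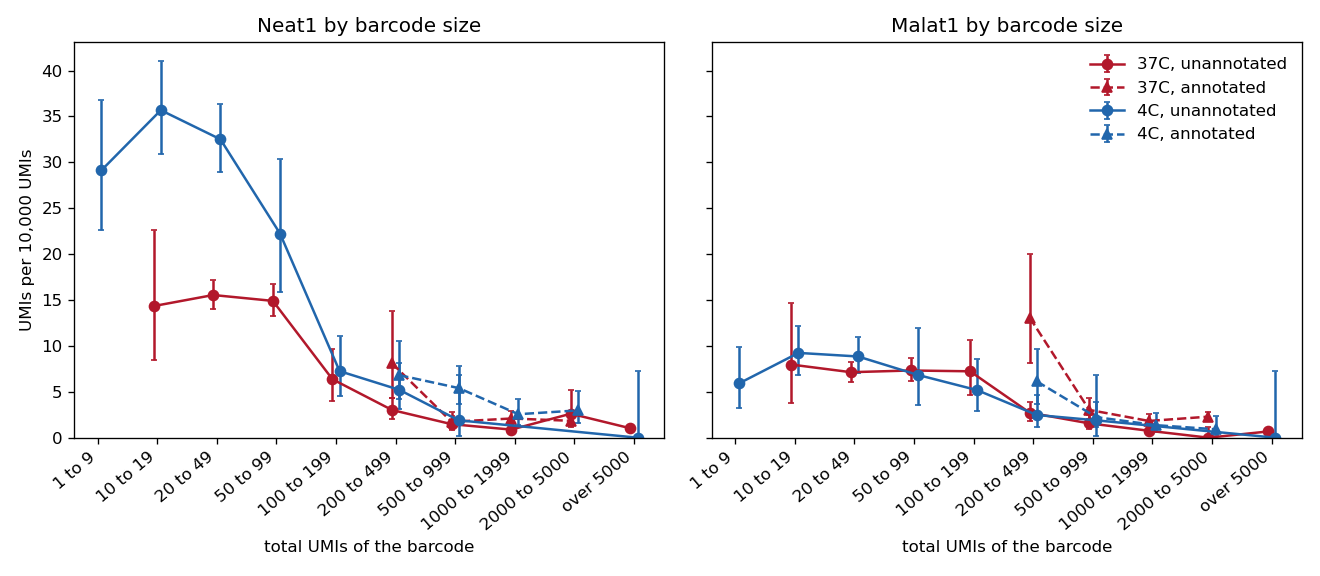
Level of Neat1 (left) and Malat1 (right), in UMIs per 10000 UMIs with 95% exact binomial intervals, by total UMIs of the barcode, pooled over the libraries of 37C (red) and 4C (blue); solid lines are unannotated barcodes and dashed lines annotated cells, and classes under 5000 UMIs in sum are left out. Neat1 at 20 to 49 UMIs stood at 15.5 at 37C and 32.5 at 4C, where 298 of the 4C UMIs came from libraries without inhibitor and 7 from those with it; with inhibitor the levels were 11.3 and 12.98.

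The small barcodes held these RNAs thinly. Of 22525, Neat1 was seen once in 1173, as 2 UMIs in 63 and as 3 or more in 8, while Malat1 was seen once in 475, as 2 in 17 and as more in 2. Neat1 was found in 7.49% of the 494 barcodes with Malat1, whose median size was 41 UMIs, and in 5.48% of those without it, whose median was 25. In annotated cells, Neat1 was found in 32.0% of the 125 cells with Malat1 and in 20.6% of the others (median 1436 and 957 UMIs).

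Neat1 was lower at 37C than at 4C in annotated cells. All 4 libraries at 37C lay between 1.77 and 2.20 per 10000, below all 4 at 4C, between 3.38 and 5.60. The means were 2.02 ± 0.20 at 37C and 4.33 ± 0.93 at 4C (SD, n = 4 libraries each). The log2 fold change of 37C over 4C, averaged over inhibitor, was -1.004 ± 0.25 (SE; edgeR adjusted p = 0.0244), and 1.24% of 3391 genes were called lower. With inhibitor it was -0.86 ± 0.37 (adjusted p = 0.295; 0.796% of genes called lower), and without it -1.15 ± 0.34 (0.144; 0.0885%). The call was lost when aliquots were summed (-0.99, adjusted p = 0.0889), in DESeq2 (-1.03, 0.0915), with the makeup of tumour and T cells held constant (-0.97, 0.065), with no filter (-0.71, 0.283), and in libraries thinned to 1 depth (-1.11, 0.0797). It held in 1 of 8 fits that left out 1 library, the one without 4C with inhibitor B (-1.19, adjusted p = 0.0407). It was lost without 37C with inhibitor A (-1.01, 0.051) or B (-1.001, 0.058), 37C no inhibitor A (-0.97, 0.0874) or B (-1.04, 0.0676), 4C with inhibitor A (-0.85, 0.102), and 4C no inhibitor A (-1.02, 0.0559) or B (-0.99, 0.0739).

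Malat1 did not separate the temperatures. It averaged 2.49 ± 1.42 per 10000 at 37C and 2.09 ± 1.22 at 4C (SD, n = 4 libraries each), with overlapping libraries. Its log2 fold change was 0.48 ± 0.46 averaged over inhibitor (edgeR adjusted p = 0.671), 1.20 ± 0.73 with inhibitor (0.502) and -0.24 ± 0.53 without. Without 37C with inhibitor A, the value with inhibitor was -0.45 (adjusted p = 0.851), and without aliquot B it was 1.95 (0.0668, or 0.0403 with the filter on low counts applied anew). Its aliquots differed widely: A exceeded B in 4 of 4 suspensions, with 85 and 16 UMIs in the pair at 37C with inhibitor.

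**Figure D3:**
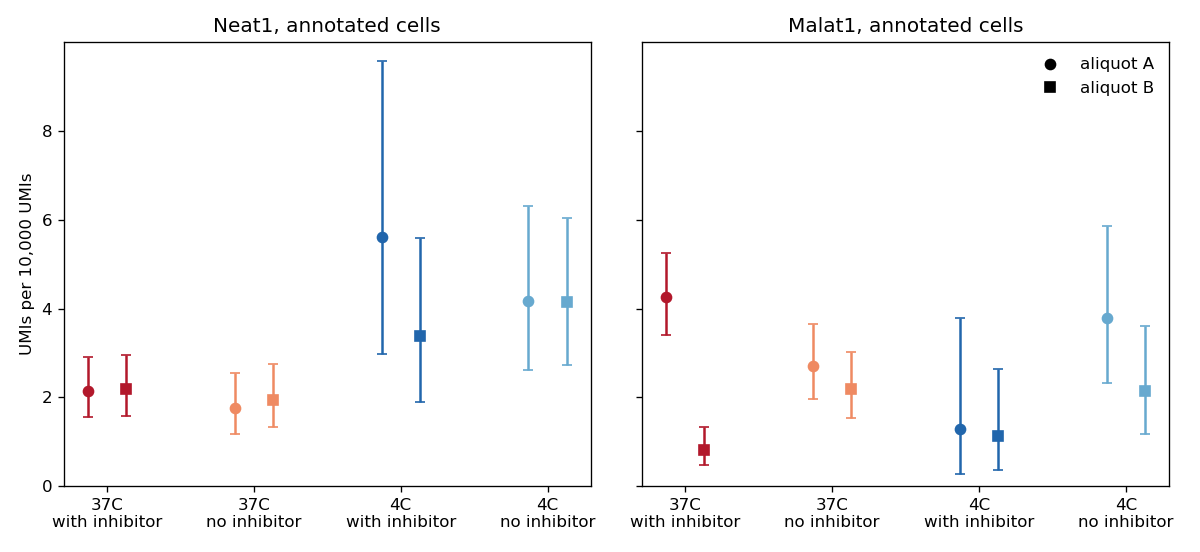
Level of Neat1 (left) and Malat1 (right) in annotated cells, in UMIs per 10000 UMIs, for each aliquot with its 95% exact binomial interval. Neat1 lies at 1.77 to 2.20 in the 37C libraries and at 3.38 to 5.60 in the 4C libraries.

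Neither RNA was called for the inhibitor in annotated cells. At 37C, Neat1 averaged 2.17 ± 0.03 with inhibitor and 1.86 ± 0.12 without (SD, n = 2 aliquots each), a log2 fold change of 0.25 ± 0.32 (edgeR adjusted p = 0.971), while Malat1 had 0.09 ± 0.46. Of all genes 1.21% were called there. At 4C, Neat1 had -0.03 ± 0.38 and Malat1 -1.35 ± 0.78 (edgeR adjusted p = 0.913), with 3 and 5 Malat1 UMIs with inhibitor against 20 and 14 without. At 4C and for the interaction, 0% of genes were called (172 and 250 of 3391 at an unadjusted p under 0.05, and 0 in DESeq2).

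The share of cell types moved with temperature beside this, and beyond the fit at constant makeup its part was not tested. Macrophages were 14.8% to 30.8% of annotated cells in the 37C libraries and 2.94% to 13.6% at 4C, and T cells 8.93% to 28.3% and 30.5% to 47.1%. Macrophage markers (10 listed) summed to 26.4 to 95.3 per 10000 at 37C and 4.51 to 20.1 at 4C, and T cell markers (10 listed) to 6.74 to 23.7 and 18.4 to 32.9. Cell size moved too, with a median of 1267 UMIs at 37C and 606 at 4C. In annotated cells of 500 UMIs or more, an alternative added after seeing the data, Neat1 had -0.96 ± 0.28 (edgeR adjusted p = 0.0914).

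Within tumour cells alone, Neat1 stood at 1.95 and 2.60 per 10000 (37C with inhibitor), 0.801 and 2.04 (37C without), 6.68 and 4.25 (4C with) and 3.99 and 3.75 (4C without). All 37C libraries lay below all 4C libraries. The log2 fold change was -1.27 ± 0.33 (edgeR adjusted p = 0.028), where 0.513% of 1756 genes were called lower, and it kept its call in 1 of 8 fits without 1 library, the one without 37C no inhibitor B (-1.70, adjusted p = 0.048). In the others it stood at -1.43 to -1.03, without 37C with inhibitor A (adjusted p = 0.106) or B (0.0764), 37C no inhibitor A (0.134), 4C with inhibitor A (0.241) or B (0.0738), and 4C no inhibitor A (0.0547) or B (0.0734). Malat1 had 0.14 ± 0.57. For the inhibitor at 37C Neat1 had 0.60 ± 0.40 and Malat1 -0.42 ± 0.54, neither called, with 0.911% of genes called. In T cells neither RNA passed the filter on low counts, and macrophages and NK cells had too few cells for a fit.

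The same difference was read in the unannotated barcodes, which come from the same suspensions and so are not further replicates. In those under 200 UMIs, Neat1 averaged 14.9 ± 4.93 per 10000 at 37C and 28.0 ± 6.73 at 4C (SD, n = 4 libraries each); the highest 37C library, at 21.1, lay just above the lowest 4C library, at 20.8. The log2 fold change was -0.80 ± 0.18 (edgeR adjusted p = 0.000645; 5.31% of 3014 genes called lower). It was -0.83 ± 0.26 with inhibitor (0.0251; 5.41%) and -0.77 ± 0.24 without (0.0438; 1.13%). The averaged call held in 8 of 8 fits without 1 library (-0.95 to -0.67). With inhibitor the call held in 6 of 8 and was lost without 37C with inhibitor B (-0.60, adjusted p = 0.306) or 4C with inhibitor A (-0.72, 0.166). Without inhibitor it held in 3 of 8 and was lost without 37C with inhibitor A (-0.77, 0.0823) or B (-0.77, 0.0798), 37C no inhibitor A (-0.98, 0.0642) or B (-0.58, 0.406), or 4C no inhibitor A (-0.50, 0.448). Malat1 had 0.02 ± 0.24, with 7.26 ± 3.54 and 7.87 ± 3.05 per 10000.

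Barcode size moved with temperature in this set: the median was 37 to 57 UMIs in the libraries at 37C with inhibitor, 32 to 36 at 37C without, 7 to 10 at 4C with and 18 to 27 at 4C without. Restricted to 20 to 49 UMIs, an alternative added after seeing the data, Neat1 averaged over inhibitor had -0.01 ± 0.44 (edgeR adjusted p = 0.998). In that class Neat1 without inhibitor kept its difference, at 18.7 per 10000 at 37C and 33.7 at 4C (-0.96 ± 0.28, edgeR adjusted p = 0.0129). With inhibitor the order turned, at 11.3 at 37C and 12.98 at 4C. The fitted value was 0.95 ± 0.61 (0.348) from only 7 Neat1 UMIs in the 4C libraries. On the same 7 UMIs, Neat1 was called for the inhibitor at 4C in this class (-2.49 ± 0.53, edgeR adjusted p = 0.00393), where 2 genes were called. Over all barcodes under 200 UMIs that contrast gave -0.47 ± 0.25 for Neat1 and -0.56 ± 0.38 for Malat1, with 0 genes called. At 10 to 19 UMIs the pooled levels with inhibitor were 13.7 at 37C, from 5 UMIs, and 32.9 at 4C. Macrophage markers summed to 62.8 to 143.0 per 10000 over the 37C libraries and 8.20 to 15.4 over the 4C libraries; their part was not tested.

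The inhibitor at 37C gave lower values of both RNAs in the small barcodes, none called in the main fit. With the replicate letters as a block both were called. The letters did not pair the libraries over all genes, but A exceeded B in these barcodes in 4 of 4 suspensions for both RNAs. Neat1 stood at 13.5 and 9.24 per 10000 with inhibitor and 21.1 and 15.8 without, a log2 fold change of -0.54 ± 0.24 (edgeR adjusted p = 0.215), and Malat1 had -0.62 ± 0.30 (0.267), where 4.98% of genes were called. Without 37C with inhibitor A, Malat1 had -1.62 (adjusted p = 0.0353). In unannotated barcodes of 200 to 5000 UMIs, Malat1 stood at 0.42 and 1.18 with inhibitor and 3.79 and 2.56 without (-1.93 ± 0.61, edgeR adjusted p = 0.193). Neat1 there stood at 1.26 and 1.26 against 3.79 and 2.90 (-1.42 ± 0.49, adjusted p = 0.29), and 1.06% of 939 genes were called. For temperature in that set, Neat1 had -0.65 ± 0.49 and Malat1 -0.38 ± 0.62, neither called, with 6.18% of genes called.

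**Figure D4:**
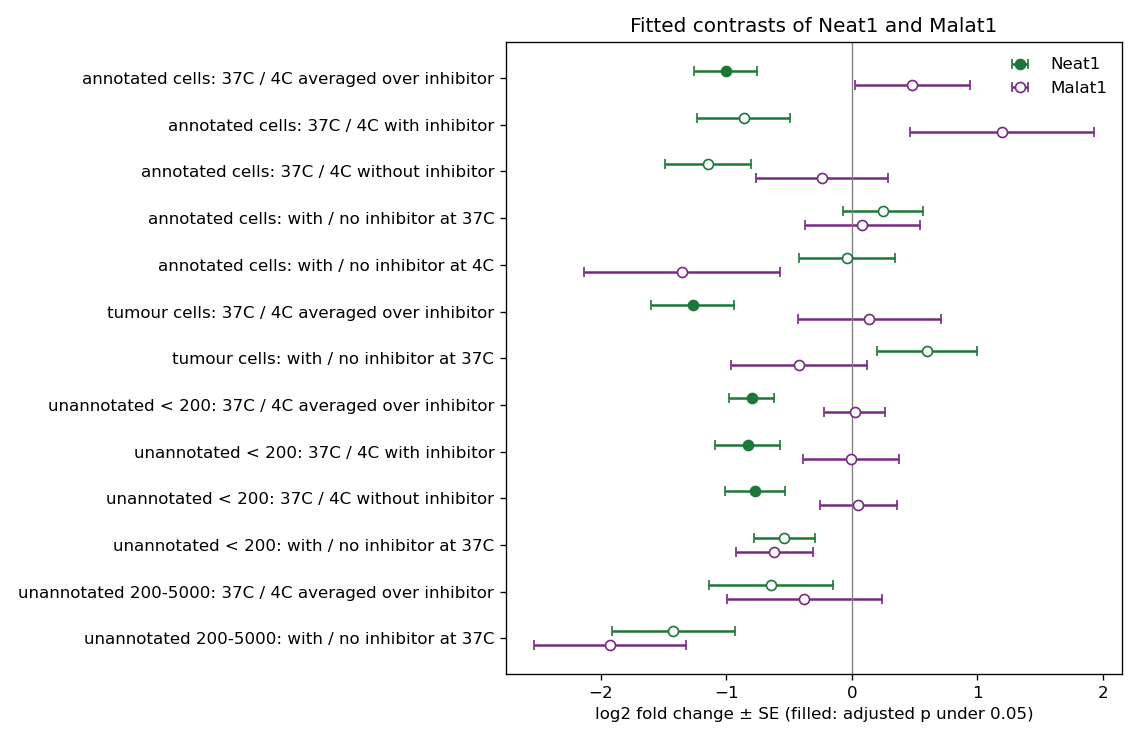
Log2 fold changes with SE of Neat1 (green) and Malat1 (purple) in each fit, 37C over 4C or with over without inhibitor; filled points have an adjusted p under 0.05. Neat1 lies below 0 in each temperature contrast drawn, from -1.27 to -0.65, and is filled in 5 of them.

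Few mRNAs for proteins of the nuclear bodies were called for temperature in annotated cells. Since 3.98% of all genes were called there in either direction, counts over lists this short say little. Of 12 tested paraspeckle proteins 0 were called, with a median log2 fold change of 0.09 against 0.04 over all genes; their values ran from -0.93 ± 0.39 (Hnrnpul1) to 0.92 ± 0.34 (Ewsr1), and Hnrnpk had 0.55 ± 0.26, Smarca4 0.31 ± 0.33 and Hnrnpm 0.13 ± 0.32. Of 20 tested speckle and splicing proteins 1 was called higher at 37C, Srrm1, a splicing coactivator (3.51 ± 0.97, edgeR adjusted p = 0.0458), and the median was 0.10. Of 7 other long noncoding RNAs tested 0 were called; Gas5 had 0.43 ± 0.30 and Xist 0.89 ± 0.39. For the inhibitor at 37C, 0 of the 39 tested members of the lists were called, with medians of -0.01, -0.33 and -0.51 against 0.01.

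The cell types ordered the RNAs differently, as a description with no test, since the types were made from these cells' expression. Malat1 pooled over libraries stood at 6.57 per 10000 in NK cells (95% interval 4.55 to 9.18), 5.32 in macrophages (4.21 to 6.63), 2.97 in T cells (2.08 to 4.11) and 1.25 in tumour cells (0.983 to 1.58). NK cells and macrophages were not separate, and neither was any library mean from its neighbours: 4.55 ± 7.25, 6.62 ± 5.53, 2.45 ± 1.93 and 1.24 ± 0.58 (SD, n = 8 libraries each). A single NK cell at 37C with inhibitor, aliquot A, held 17 of the 34 Malat1 UMIs of NK cells; without it they stood at 3.43, below macrophages.

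Neat1 pooled to 3.28 per 10000 in NK cells (1.91 to 5.26), 3.10 in macrophages (2.27 to 4.13), 2.42 in tumour cells (2.04 to 2.86) and 1.57 in T cells (0.943 to 2.45). The intervals of the types overlapped, that of T cells included. The order changed with temperature. At 37C Neat1 stood at 2.88 in NK cells, 2.69 in macrophages, 1.96 in tumour cells and 0.981 in T cells, and at 4C at 3.89, 8.08 (from 9 UMIs in 17 cells), 4.30 and 2.77. Malat1 in those types stood at 9.29, 4.805, 1.26 and 3.19 at 37C and at 2.43, 11.7, 1.23 and 2.51 at 4C. The 11.7 of macrophages rests on 13 UMIs in 17 cells. Of those UMIs 10 lay in 1 cell of 336 UMIs at 4C without inhibitor, aliquot A. Without that cell the macrophages of that library stood at 1.81. The 9.29 of NK cells includes the cell with 17 Malat1 UMIs. Tumour cells had 1.93 Neat1 UMIs for each Malat1 UMI, against 0.583 in macrophages, 0.528 in T cells and 0.5 in NK cells. In the deposited log values the mean Neat1 was 0.60 in tumour cells, 0.37 in T cells, 0.72 in macrophages and 0.71 in NK cells, and the mean Malat1 was 0.32, 0.45, 0.96 and 0.64.

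Shares of cells with a UMI were compared unthinned and at 1 depth. Unthinned, Neat1 was seen in 27.4% of tumour cells and 11.7% of T cells, whose medians were 1359 and 503.5 UMIs. With each cell thinned to 200 UMIs, the shares were 5.54% and 3.25%. Thinned to 300 UMIs, which left out 0 tumour cells and 31 T cells, the order turned, at 7.08% and 8.94%. Malat1 was seen in 33.9% of macrophages and 15.7% of tumour cells (medians 1133 and 1359). Its shares were 11.01% and 3.08% thinned to 200 UMIs, and 13.7% and 3.38% thinned to 300. By temperature, Neat1 thinned to 200 UMIs was seen in 5.08% of cells at 37C and 8.14% at 4C, pooled over libraries; unthinned, in 21.2% and 25.8% (medians 1267 and 606). Single libraries ranged from 3.48% to 6.54% at 37C and 3.70% to 13.6% at 4C and overlapped. Thinned to 300 UMIs, which left out 16 and 33 cells, the pooled shares were 6.95% and 13.3%, and libraries ranged from 5.45% to 9.47% and 6.52% to 22.2%. No cell type that lacks these RNAs was at hand as a background, and the small barcodes above carry both.

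**Figure D5:**
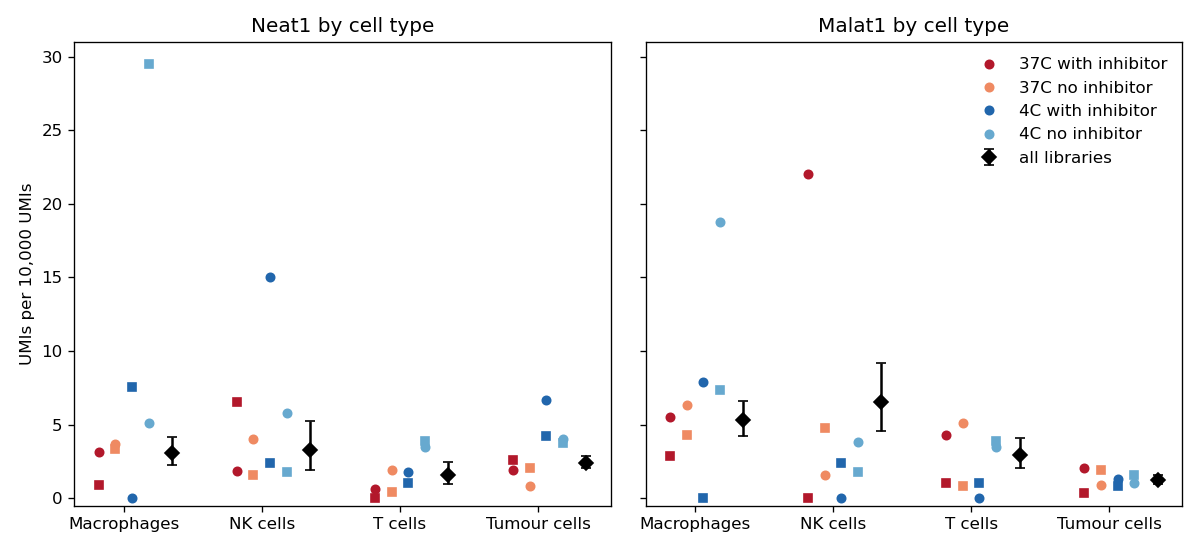
Level of Neat1 (left) and Malat1 (right) by cell type, in UMIs per 10000 UMIs, in each library (circles aliquot A, squares aliquot B) and pooled over libraries with its 95% exact binomial interval (black). Malat1 in NK cells at 37C with inhibitor, aliquot A, stands at 22.0, with 17 of its 24 UMIs in 1 cell.

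Genes were also ordered by the likeness of their profile over the 8 library sums of annotated cells, by Pearson's r of log2 CPM among 858 genes, as a description over libraries that share groups and depth. Closest to Neat1 were Mfge8 (0.93), Rps15a (0.92), and Igtp (0.92), Irgm1 (0.90) and Ifi47 (0.89), the last 3 being interferon-induced GTPases. Closest to Malat1 were Cma1 (0.89), Tpsb2 (0.88), Cpa3 (0.83) and Tpsab1 (0.83), proteases of mast cells, and Sec62 (0.81). Of 2409 UMIs of those proteases in annotated cells, 2360 lay in 7 cells labelled macrophages, which held 18 Malat1 UMIs; without them the macrophages stood at 4.49 Malat1 and 2.65 Neat1 UMIs per 10000. The choice of these 7 cells, by 50 or more such UMIs, was made after their values were seen. By library, in aliquots A and B, the protease UMIs were 731 and 21 (37C with inhibitor), 1124 and 92 (37C without), 1 and 1 (4C with) and 430 and 9 (4C without). Malat1 was also higher in A in 4 of 4 suspensions, and the part of the aliquots in this likeness was not tested.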

How the data were processed

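Per the labels' protocols, libraries were made with a 3′ kit on a droplet instrument. Per the submitters' processing notes, the build was GRCm38 and the tools included STAR 2.7.1a and featureCounts 1.6.0 beside Seurat, SAMtools and UMI-tools. For settings, strand, cell filters and doublets, the sources used here give nothing. The deposited library tables hold raw UMI counts per gene and barcode. The authors' expression table holds the natural log of scaled values for 654 cells; Neat1 and Malat1 were above 0 there in the same cells as in the counts. The other deposited table, which is not numeric, gives each cell's library and type. Gene identifiers were matched to GENCODE M21 without version (17520 of 17580). Reads of overlapping genes cannot be separated.

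Counts were summed per library and set of barcodes, filtered by filterByExpr, scaled by TMM and tested with edgeR 4.0.16 under R 4.3.3 (glmQLFit, glmQLFTest, two-sided, 4 group means; library as block between sets), with Benjamini-Hochberg adjustment over all tested genes. Sums under 1000 UMIs were left out between sets. Intervals are exact (Clopper-Pearson) at 95%. Replicate letters did not pair the libraries (correlation of deviations -0.03 to 0.24). Aliquots differed by more than sampling noise (chi-square per degree of freedom 1.53 to 2.05). Scripts were tested on simulated data. Alternatives used DESeq2 1.42.0 and limma 3.58.1. Genes, lists and motifs were chosen with earlier results of these data known; list members were named where called over annotated cells, otherwise by abundance, and in the comparison of sets examples were picked after values were seen. The fit of barcodes under 200 UMIs was added after seeing the data. The values of 1 list member are not reported here.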

Additional observations from a re-analysis of the deposited data

How the results depend on the processing

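The higher levels under 200 UMIs and the lower levels over 5000 UMIs, against annotated cells, kept their direction and call for both RNAs in every alternative run. Other results depended on settings, and the causes were not tested. For Neat1 and temperature over annotated cells the value was -1.03 in DESeq2, -0.71 with no filter, -1.11 thinned to the smallest library, -0.99 with aliquots summed, -0.97 at a constant makeup of tumour and T cells (limma) and -0.96 in cells of 500 UMIs or more, none called. With all barcodes in place of annotated cells Neat1 had -1.81 with and -1.62 without inhibitor, both called. Malat1 then had -0.65 averaged and -0.65 with inhibitor, and for the inhibitor at 37C Malat1 had -0.67 and Neat1 -0.60. Their interactions were -0.0020 and -0.19. Over all barcodes the mix of sizes differed by temperature, and its part was not tested. Barcodes over 5000 UMIs held 841059 UMIs at 37C and 5049 at 4C, and unannotated barcodes under 200 UMIs held 474269 and 219236.

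Other values changed sign. The limits of 20 to 49 and of 500 UMIs for cells, the omission of 1 cell, and all alternatives run under 200 UMIs or in tumour cells were chosen after seeing the data. Neat1 for the inhibitor at 4C was 0.025 with DESeq2 size factors, 0.040 in DESeq2 and 0.26 in cells of 500 UMIs or more. Malat1 for temperature without inhibitor was 0.0089 with no filter and 0.49 in those cells. Malat1 for the inhibitor at 37C was -0.33 at a constant makeup and -0.17 without the cell with most Malat1. Between sets, at 200 to 5000 UMIs, Malat1 had 0.28 with a lower limit of 100 UMIs, and Neat1 had -0.62 with a limit of 500 UMIs and -0.033 with DESeq2 size factors. In barcodes of 20 to 49 UMIs, temperature gave -0.0056 averaged and 0.95 with inhibitor for Neat1, and 0.45 with and -0.11 without inhibitor for Malat1.

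The letters A and B did not pair the libraries over all genes (correlation of deviations -0.03 to 0.24). Even so, A exceeded B under 200 UMIs in 4 of 4 suspensions for both RNAs. In annotated cells A exceeded B in 4 of 4 for Malat1 and 2 of 4 for Neat1. With the letters as a replicate block, Neat1 for temperature over annotated cells stayed called (-1.004) and Malat1 for the inhibitor at 37C was -0.10. Under 200 UMIs the block gave Malat1 -0.031 for temperature, and called the inhibitor at 37C for Malat1 (-0.69) and Neat1 (-0.55).

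Leaving out 1 library at a time, with the genes of the full fit kept, gave these ranges. Malat1 over annotated cells had -1.56 to 0.84 (inhibitor at 37C), -0.21 to 2.19 (interaction), -0.34 to 0.86 (temperature, averaged), -0.45 to 1.95 (temperature with inhibitor) and -0.58 to 0.18 (temperature without inhibitor). Malat1 between sets had -0.37 to 0.37 (200 to 5000 UMIs). Malat1 in tumour cells had -2.10 to 0.43 (inhibitor at 37C) and -0.71 to 0.56 (temperature, averaged). Malat1 under 200 UMIs had -1.62 to -0.10 (inhibitor at 37C), -0.48 to 0.30 (temperature, averaged), -1.01 to 0.51 (temperature with inhibitor) and -0.40 to 0.61 (temperature without inhibitor). Neat1 over annotated cells had -0.34 to 0.34 (inhibitor at 4C), -0.099 to 0.58 (interaction) and -1.19 to -0.85 (temperature, averaged). Neat1 between sets had -0.23 to 0.14 (200 to 5000 UMIs). Neat1 in tumour cells had -1.70 to -1.03 (temperature, averaged). Neat1 under 200 UMIs had -1.13 to -0.60 (temperature with inhibitor) and -0.99 to -0.50 (temperature without inhibitor). Keeping the genes was decided after seeing the data, since a group of 1 library changes the filter, and its lone library is assumed to vary like the others. Applied anew, the filter tested 2407 to 5940 genes over annotated cells in place of 3391. Neat1 for temperature was then called in 3 of 8 fits over annotated cells (kept genes: 1), 2 in tumour cells (1) and, under 200 UMIs, 2 with (6) and 2 without inhibitor (3). Malat1 was then called with inhibitor over annotated cells without 37C with inhibitor B (1.94, edgeR adjusted p = 0.0403), and at 200 to 5000 UMIs for the inhibitor at 37C without 4C no inhibitor A (0.0276) or B (0.0336). Called genes over annotated cells ranged over 49 to 139 for averaged temperature and 5 to 49 for the inhibitor at 37C.

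Counts of called genes over annotated cells (averaged temperature, without, with, inhibitor at 37C) were 135, 36, 61 and 41. They were 60, 22, 33 and 8 in DESeq2, 293, 85, 135 and 75 with no filter, 1290, 349, 795 and 256 over all barcodes, 26, 2, 13 and 0 when thinned, 12, 9, 0 and 3 at a constant makeup, and 56, 32, 17 and 23 in cells of 500 UMIs or more. With the inhibitor at 4C and for the interaction, 0 and 0 became 11 and 14 with no filter, 2 and 87 over all barcodes and 5 and 2 with the replicate block, which also gave 56 in place of 36. Under 200 UMIs, 424, 156, 385 and 150 became 116, 90, 60 and 47 at 20 to 49 UMIs, and 150 became 236 with the block. Between sets at 200 to 5000 UMIs, 44 became 71 (limit of 100), 68 (500) and 82 (DESeq2 size factors).

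A limit of 20 cells per type and library left 0 types. Malat1 rests on 3 to 85 UMIs per library of annotated cells and Neat1 on 13 to 43, which limits each value.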
